A study of Homo sapiens with 8 samples.

Results

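The snoRNA host noncoding genes are transcription units whose introns carry small nucleolar RNAs (snoRNAs) and whose spliced exons encode no known protein. They were taken here as the genes with a symbol made of SNHG and a number, together with GAS5 and ZFAS1. The rule found 30 genes among the 78932 gene identifiers of the deposited tables, and 24 of them had enough reads to be tested. The study sequenced the 3′ ends of messenger RNA from the human colorectal cancer line HCT116, in the engineered form named dTAG-NUDT21. NUDT21 is the RNA-binding subunit of cleavage factor Im, which binds UGUA in the nascent RNA and takes part in the choice of the polyadenylation site. One group of 4 libraries came from cells given DMSO, the solvent control, with JTE-607, an inhibitor of the pre-mRNA cleavage enzyme CPSF73, and the other group of 4 came from cells given dTAGV1, a degrader of dTAG-fused proteins, with JTE-607. Every cell sample thus carried the tagged NUDT21 and received JTE-607, and the comparison has no sample without either. Doses, times and whether the line is 1 clone are not given in the sources used here, nor is it stated that replicates were separate cultures, so p-values measure the spread between these samples, which may be technical.

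Most human snoRNAs are cut out of introns: after splicing, the intron lariat is opened and trimmed back to the snoRNA, which is protected by its core proteins. C/D snoRNAs guide 2′-O-methylation of ribosomal RNA, H/ACA snoRNAs guide its pseudouridylation, and the related scaRNAs act on spliceosomal RNAs in Cajal bodies. The spliced exons of many hosts reach the cytoplasm, are read by ribosomes over short open frames and are removed by nonsense-mediated decay, and several hosts start in a run of pyrimidines like the genes of ribosomal proteins. GAS5 was named for its accumulation in growth-arrested cells.

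The mRNA of the tagged gene was checked first. NUDT21 had 104, 139, 131 and 129 counts in the DMSO libraries and 34, 29, 15 and 43 in the dTAGV1 libraries. Scaled to counts per 1000000 (CPM), the level was 32.2 ± 2.81 with DMSO and 8.25 ± 2.62 with dTAGV1 (SD, n = 4 per group), and the log2 fold change was -1.95. dTAGV1 acts on the tagged protein, which these data do not measure, so the counts do not show its loss. The libraries held 8649238 to 9977205 reads, of which 3447842 to 4291256 were counted on the strand of a gene. Over all genes, 12618 were tested with edgeR's quasi-likelihood test, and 57.9% of them passed an adjusted p of 0.05. The 5 epithelial markers EPCAM, KRT8, KRT18, KRT19 and CDH1 were all detected, and their counts summed to 6375 to 6984 with DMSO and 4318 to 5526 with dTAGV1. Markers of blood, vessel, fibroblast and liver cells summed to 65 to 76 and 37 to 61 counts. Nearly all of these were COL1A1, ALB was at 0 in every library, and PTPRC, CD3E and PECAM1 averaged at most 0.192 CPM. The epithelial genes did not move as one: KRT18 and KRT19 fell by 0.60 and 0.65 on the log2 scale, EPCAM rose by 0.28, and KRT8 and CDH1, at -0.38 and 0.02, did not pass the test. Both sums, of unscaled counts, were lower with dTAGV1, and their part in the members' differences was not tested. COL1A1, at -0.32 on the log2 scale, did not pass the test. In bulk RNA, fewer cells of a type and less RNA per cell cannot be told apart.

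Of the 24 tested host genes, 10 rose with dTAGV1, 3 fell and 11 did not pass the test. The 10 that rose were SNHG8, SNHG19, GAS5, SNHG21, SNHG17, SNHG29, ZFAS1, SNHG25, SNHG7 and SNHG3, with log2 fold changes from 0.24 to 0.96. The 3 that fell were SNHG4, SNHG1 and SNHG12. The risers were 41.7% of the tested members, where 29.4% of all tested genes were called higher. The fallers were 12.5%, where 28.5% of all tested genes were called lower. In either direction 54.2% of the members were called, near the 57.9% of all tested genes. The median log2 fold change was 0.19 over the members and 0.015 over all tested genes. Of the members 18 had a positive and 6 a negative value, and SNHG4 alone was called past 2-fold. With scaling by library size alone, 8 members were called higher and 4 lower, and SNHG11, SNHG15 and SNHG16 turned from positive to negative. The groups did not overlap, with dTAGV1 higher, for 9 members (25.8% of all tested genes) and, with dTAGV1 lower, for 3 members (25.1% of all tested genes); in either direction 50.9% of all tested genes were apart. SNHG25 was the called member whose groups overlapped. Standard errors (SE) of the members' log2 fold changes ran from 0.065 to 0.241.

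**Figure D1:**
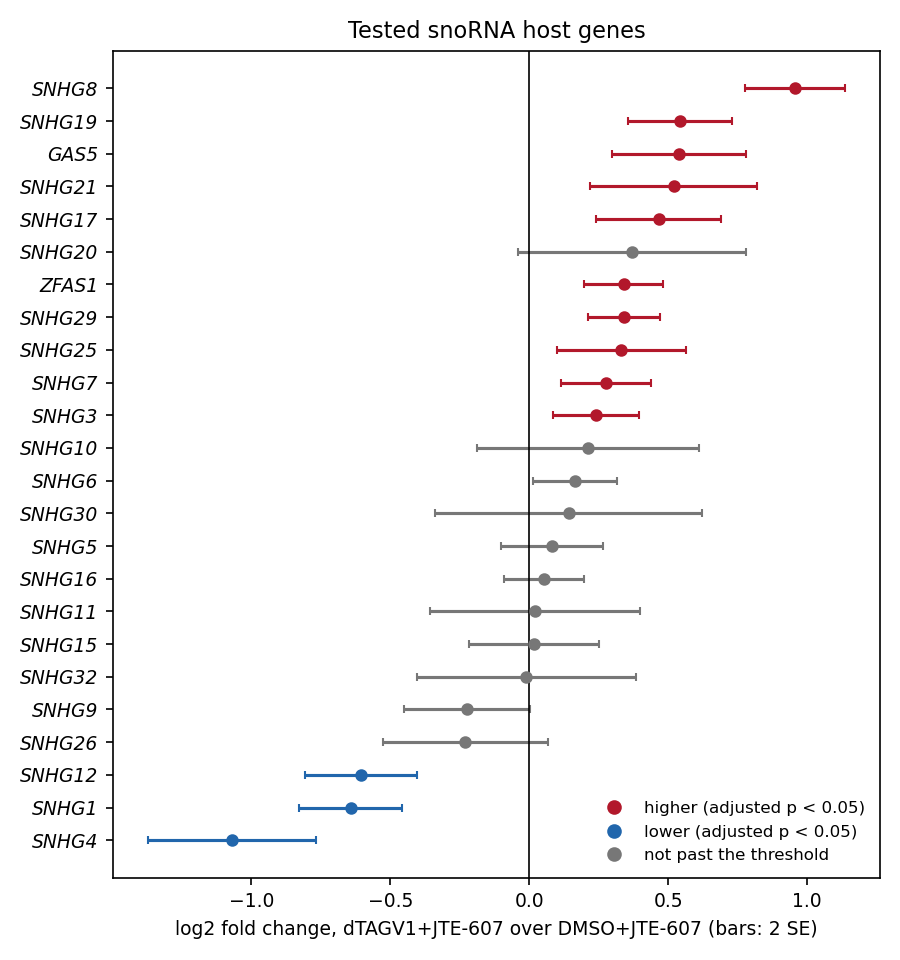
Log2 fold change of each of the 24 tested host genes, dTAGV1+JTE-607 over DMSO+JTE-607 (horizontal axis), with bars of 2 SE to each side; red and blue mark genes past an edgeR adjusted p of 0.05. The 10 genes called higher lie between 0.24 and 0.96, and SNHG4, SNHG1 and SNHG12 lie at -1.07, -0.64 and -0.61.

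The other 6 members missed the filter on low counts. SNHG18 and SNHG28 had no count in any library. SNHG27 had 1 count in all, SNHG14, the long host of the SNORD116 and SNORD115 clusters of chromosome 15, had 4, SNHG22 had 12 and SNHG31 had 41, with at most 9 in a library. A count of 0 allows up to 3 counts, or 0.699 to 0.87 CPM in these libraries, for counting error only.

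By RefSeq spans, the 24 tested members hold 61 snoRNA entries, of which 37 are C/D, 19 are H/ACA and 3 are scaRNAs; the other 2 have no class in their symbols. The classes that follow use these RefSeq spans; GENCODE 29, with a longer span of SNHG25, also places the H/ACA snoRNA SNORA50C inside that gene, which would make it a host of both classes. Hosts of C/D snoRNAs alone numbered 11, of which 4 rose and 1 fell. Hosts of H/ACA snoRNAs alone numbered 8, of which 4 rose and 1 fell. GAS5 and SNHG12 hold both classes, and 1 of these rose and 1 fell. Of the 3 hosts of scaRNAs, 1 rose and none fell.

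Among the C/D hosts, SNHG1 (chr11:62851988-62855914, minus strand) holds 8 C/D snoRNAs, SNORD22 and SNORD25 to SNORD31, in less than 4 kilobases. Its counts were 379, 499, 424 and 421 with DMSO and 290, 208, 237 and 286 with dTAGV1. Every dTAGV1 library lay below every DMSO library. SNHG1 fell from 110 ± 8.01 to 70.6 ± 8.25 CPM (SD, n = 4), and the log2 fold change was -0.64 (SE 0.09, edgeR adjusted p = 1.75e-06). It was the C/D-only host that fell.

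SNHG29 (chr17:16438822-16478678, plus strand), which hosts SNORD49A, SNORD49B and SNORD65, was the most abundant member. Its counts were 2969, 3127, 2880 and 3276 with DMSO and 3338, 3263, 3322 and 4518 with dTAGV1. In raw counts the groups overlapped, and after scaling all dTAGV1 libraries were above all DMSO libraries. SNHG29 rose from 786 ± 29.1 to 995 ± 52.1 CPM, and the log2 fold change was 0.34 (SE 0.07, edgeR adjusted p = 8.1e-05).

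ZFAS1 (chr20:49278178-49295738, plus strand), host of SNORD12, SNORD12B and SNORD12C, lies head to head with ZNFX1. ZFAS1 counts were 1047, 1077, 920 and 1059 with DMSO and 1168, 1029, 1133 and 1508 with dTAGV1. It rose from 263 ± 16.9 to 333 ± 18.8 CPM (log2 fold change 0.34, SE 0.07, edgeR adjusted p = 0.000229), and the groups did not overlap in CPM. SNHG19 (chr16:2154797-2155358, minus strand), a short gene that holds SNORD60, had 752, 620, 641 and 755 counts with DMSO and 1063, 789, 889 and 996 with dTAGV1. It too had all dTAGV1 libraries on the higher side. SNHG19 rose from 178 ± 23.7 to 259 ± 30.4 CPM (log2 fold change 0.54, SE 0.09, edgeR adjusted p = 3.58e-05).

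SNHG25 (chr17:64145970-64146476, plus strand) hosts SNORD104. Its counts were 3476, 2834, 2400 and 2736 with DMSO and 3541, 3349, 2778 and 3710 with dTAGV1. DMSO replicate 1 stood at 950 CPM, inside the range of the dTAGV1 libraries, so that the groups overlapped. The increase from 738 ± 143 to 928 ± 95.4 CPM (log2 fold change 0.33, SE 0.12, edgeR adjusted p = 0.0259) was lost in 6 of the 8 fits that left out 1 library, with adjusted p between 0.0588 and 0.108; the libraries were DMSO replicates 2, 3 and 4 and dTAGV1 replicates 1, 2 and 4. It was also lost with scaling by library size alone (0.25, adjusted p = 0.109), and in counts irrespective of strand, where 4 to 30 reads a library remained, the value was -0.82 (adjusted p = 0.0417).

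The remaining 6 C/D hosts did not pass the test. SNHG6, host of SNORD87, had 1767, 1863, 1896 and 1908 counts with DMSO and 1797, 1546, 2000 and 2432 with dTAGV1. Its log2 fold change was 0.17 (2 SE to each side: 0.01 to 0.32, edgeR adjusted p = 0.0628). It passed the threshold without dTAGV1 replicate 2, at 0.21 (adjusted p = 0.0176), and with the replicate number as a block, at 0.16 (adjusted p = 0.0419). SNHG16, host of SNORD1A to SNORD1C, had 1108, 1310, 1294 and 1241 counts with DMSO and 1077, 1091, 1087 and 1533 with dTAGV1, with a log2 fold change of 0.05 (-0.09 to 0.20). In counts irrespective of strand, which kept 338 to 662 of its reads in a library, SNHG16 was at 0.69 (adjusted p = 6.99e-08). The upper end of the SNHG16 range lies below the log2 fold change of SNHG29. SNHG5, host of SNORD50A and SNORD50B, had 297, 340, 301 and 292 counts with DMSO and 320, 241, 307 and 338 with dTAGV1, with a log2 fold change of 0.08 (-0.10 to 0.26). SNHG26, host of SNORD93, had 72, 102, 76 and 113 counts with DMSO and 66, 60, 67 and 94 with dTAGV1, with a log2 fold change of -0.23 (-0.53 to 0.07). SNHG32, which GENCODE 29 types as protein-coding and which holds SNORD48 and SNORD52, had 44, 40, 55 and 40 counts with DMSO and 42, 28, 40 and 56 with dTAGV1. All of these groups overlapped. The log2 fold change of SNHG32 was -0.01 (-0.40 to 0.38), and that of SNHG30, the rarest tested member and host of SNORD7, was 0.14 (-0.34 to 0.62).

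Among the H/ACA hosts were the member that rose most and the member that fell most. SNHG8 (chr4:118278709-118279823, plus strand), host of SNORA24, had 587, 528, 570 and 580 counts with DMSO and 976, 791, 967 and 1389 with dTAGV1. The lowest dTAGV1 library exceeded the highest DMSO library. SNHG8 rose from 146 ± 14.1 to 282 ± 36.8 CPM, and the log2 fold change was 0.96 (SE 0.09, edgeR adjusted p = 3.6e-09).

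SNHG4 (chr5:139274102-139284899, plus strand), host of SNORA74A and SNORA74D, had 90, 126, 94 and 119 counts with DMSO and 44, 39, 40 and 66 with dTAGV1. Again the groups lay apart, here with dTAGV1 below. SNHG4 fell from 27.4 ± 2.96 to 12.9 ± 1.83 CPM, and the log2 fold change was -1.07 (SE 0.15, edgeR adjusted p = 1.37e-06). Its exons overlap a second gene identifier of MATR3 on the same strand, and that identifier had 1 count in the 8 libraries.

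SNHG17, SNHG7 and SNHG3 rose by less, each with groups that did not overlap in CPM. SNHG17, host of the SNORA71 family, had 137, 135, 120 and 117 counts with DMSO and 177, 141, 152 and 182 with dTAGV1 (log2 fold change 0.46, SE 0.11, edgeR adjusted p = 0.00105). SNHG7, host of SNORA17A and SNORA17B, had 568, 660, 541 and 589 counts with DMSO and 620, 530, 640 and 876 with dTAGV1 (log2 fold change 0.28, SE 0.08, edgeR adjusted p = 0.00483). The SNHG7 call was lost in counts irrespective of strand (0.16, adjusted p = 0.361), which kept 92 to 191 of its reads in a library. SNHG3 (chr1:28505980-28510892, plus strand), host of SNORA73A and SNORA73B, the U17 snoRNAs needed for the cleavage of the ribosomal RNA precursor, had 598, 612, 496 and 569 counts with DMSO and 603, 567, 568 and 761 with dTAGV1. SNHG3 rose from 146 ± 13.2 to 172 ± 5.37 CPM (log2 fold change 0.24, SE 0.08, edgeR adjusted p = 0.00952). Its call was lost without DMSO replicate 3 (0.19, adjusted p = 0.0568) and with scaling by library size alone (0.16, adjusted p = 0.0783). SNHG3 shares exon sequence with RCC1, the nuclear exchange factor of Ran on the same strand, which fell by 0.29 on the log2 scale (edgeR adjusted p = 0.0147). In STAR's layout, reads in shared exons count for neither gene.

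The other H/ACA hosts did not pass the test, and their groups overlapped in CPM. SNHG9, host of SNORA78, had 217, 195, 182 and 196 counts with DMSO and 169, 164, 129 and 164 with dTAGV1. Its log2 fold change was -0.22 (-0.45 to 0.00, edgeR adjusted p = 0.0952), and it passed the threshold without dTAGV1 replicate 1 (-0.28, adjusted p = 0.0487) and without dTAGV1 replicate 2 (-0.30, adjusted p = 0.0371), as it did with scaling by library size alone (-0.30, adjusted p = 0.028). SNHG15, host of SNORA9, had 129, 136, 111 and 125 counts with DMSO and 107, 105, 119 and 139 with dTAGV1 (log2 fold change 0.02, -0.22 to 0.25). The SNHG15 range reaches about as far below 0 as above it. SNHG11, host of SNORA60 and SNORA71E, had 43, 55, 38 and 36 counts with DMSO and 40, 41, 39 and 41 with dTAGV1 (log2 fold change 0.02, -0.36 to 0.40).

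Of the 2 hosts of both classes, GAS5 (chr1:173863900-173868882, minus strand) holds 11 snoRNAs by RefSeq, 10 C/D and 1 H/ACA. GAS5 counts were 480, 453, 397 and 421 with DMSO and 500, 463, 541 and 892 with dTAGV1. The dTAGV1 replicate 4 library was the highest, and in CPM the groups did not overlap. GAS5 rose from 113 ± 12.6 to 163 ± 33.2 CPM, and the log2 fold change was 0.54 (SE 0.12, edgeR adjusted p = 0.00114). Leaving out each library in turn, and the other settings tried, gave log2 fold changes of 0.37 to 0.61, all past the threshold.

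SNHG12 (chr1:28578538-28583132, minus strand) holds 3 H/ACA snoRNAs, SNORA16A, SNORA44 and SNORA61, and the C/D snoRNA SNORD99. SNHG12 counts were 295, 385, 281 and 281 with DMSO and 172, 176, 187 and 220 with dTAGV1. No dTAGV1 library reached the lowest DMSO library. SNHG12 fell from 79.5 ± 10 to 52.3 ± 2.66 CPM, and the log2 fold change was -0.61 (SE 0.10, edgeR adjusted p = 1.24e-05).

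Of the scaRNA hosts, SNHG21, with SCARNA15, had 60, 59, 53 and 56 counts with DMSO and 74, 60, 77 and 93 with dTAGV1. It rose from 14.7 ± 1.17 to 20.9 ± 2.01 CPM (log2 fold change 0.52, SE 0.15, edgeR adjusted p = 0.00442), and the groups did not overlap in CPM. SNHG20, with SCARNA16, had 28, 38, 27 and 47 counts with DMSO and 37, 40, 32 and 59 with dTAGV1. Its log2 fold change was 0.37, within a 2-SE range of -0.04 to 0.78. SNHG10, with SCARNA13, had 29, 47, 30 and 39 counts with DMSO and 32, 35, 34 and 55 with dTAGV1, with a log2 fold change of 0.21 (-0.19 to 0.61). Both ranges include 0 and also the value of SNHG21.

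**Figure D2:**
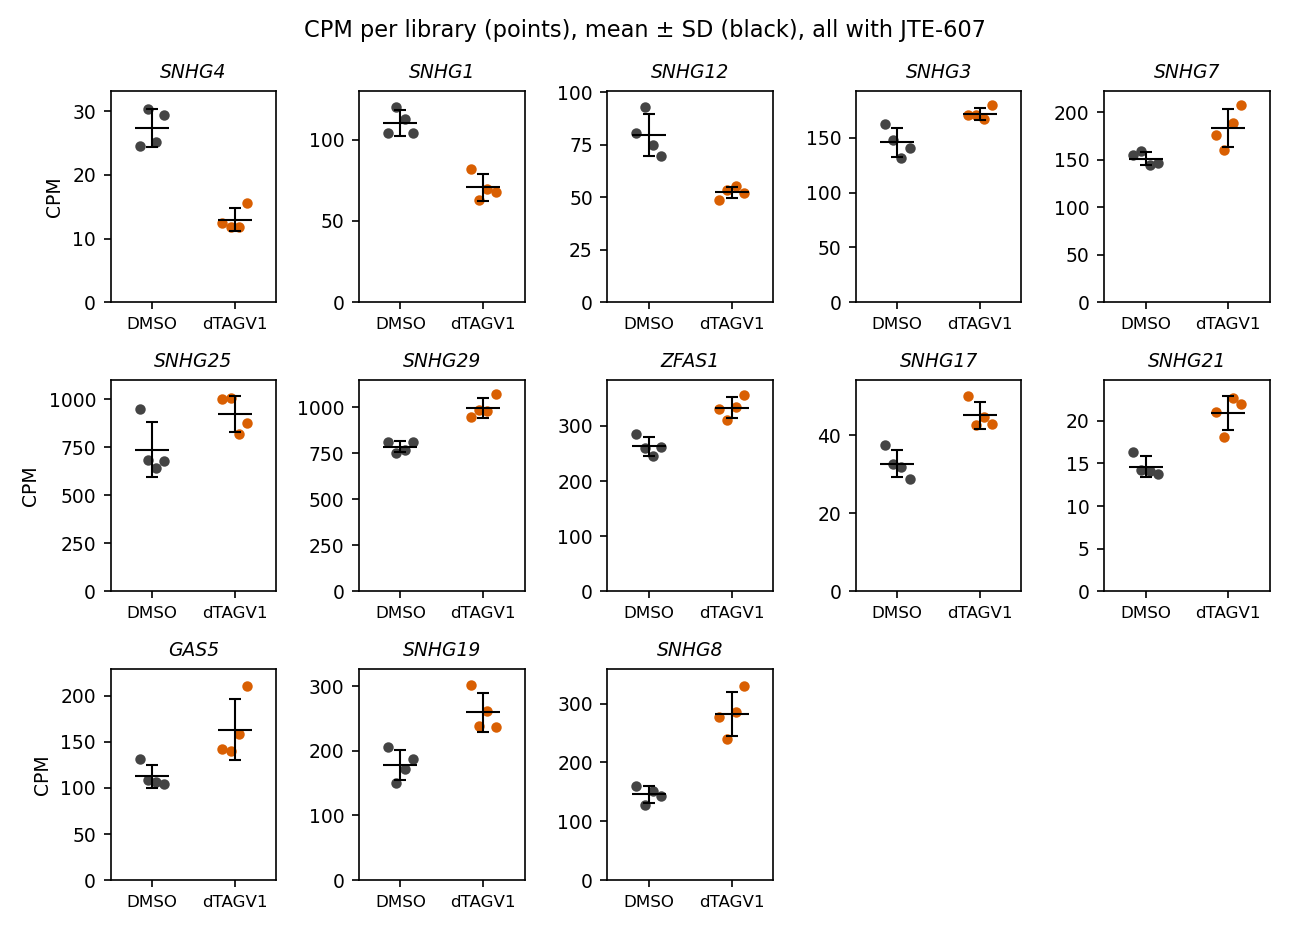
CPM of the 13 called host genes in each library (points), with mean and SD of the 4 libraries in black, DMSO on the left and dTAGV1 on the right of each panel, all with JTE-607. The groups are apart in 12 panels; in that of SNHG25, DMSO replicate 1 at 950 CPM lies among the dTAGV1 libraries.

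Sequences at the ends of some called members are shown as examples. Hosts can share a pyrimidine run at their start, and cleavage factor Im binds UGUA near the end. Every shown member that rose holds the motif searched for at that end, which not all members that rose do. For the start, a C followed by at least 4 more C or T was searched on the gene's strand, beginning within 10 bases of the RefSeq start. The windows below hold 20 bases before and 30 bases from that start, on GRCh38.p14, read 5′ to 3′, with the run in capitals. SNHG19 lies at chr16:2155329-2155378 on the minus strand, ZFAS1 at chr20:49278622-49278671 on the plus strand and SNHG8 at chr4:118278742-118278791 on the plus strand, and all of these rose. SNHG4 lies at chr5:139274081-139274130 on the plus strand, SNHG12 at chr1:28581844-28581893 on the minus strand and SNHG1 at chr11:62855856-62855905 on the minus strand, and these fell.
SNHG19: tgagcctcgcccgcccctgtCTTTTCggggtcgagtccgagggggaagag
ZFAS1: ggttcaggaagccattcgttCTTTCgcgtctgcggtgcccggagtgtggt
SNHG8: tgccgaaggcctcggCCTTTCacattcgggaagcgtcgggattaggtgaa
SNHG4: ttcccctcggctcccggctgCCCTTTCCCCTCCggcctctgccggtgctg
SNHG12: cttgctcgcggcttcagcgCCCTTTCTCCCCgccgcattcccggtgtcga
SNHG1: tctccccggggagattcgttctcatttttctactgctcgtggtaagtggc

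In SNHG19, ZFAS1 and SNHG4 the run begins at the start itself. A run was found in 13 of the 20 tested members with a start window, and in 41.8% of 9230 tested genes with one. A gene with several RefSeq starts counted as having a run if any start held it, while a member was scored on its first listed start only. These shares therefore cannot be compared. Among members the run was present in 6 of 9 that rose, 2 of 3 that fell and 5 of 8 that did not pass the test. The windows of GAS5 and SNHG3, which held no run, lie wholly upstream of the GENCODE spans given above. Runs were thus found in members of each direction.

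For the end, the last 100 bases of 1 GENCODE 29 transcript per gene on GRCh38 were searched for TGTA on the gene's strand, and their last 40 bases for the polyadenylation hexamers AATAAA and ATTAAA. The annotated end need not be the end used in these cells. The windows of SNHG8 (chr4:118279724-118279823 on the plus strand) and SNHG29 (chr17:16441929-16442028 on the plus strand) each hold TGTA, and these genes rose. Those of SNHG1 (chr11:62851988-62852087 on the minus strand) and SNHG12 (chr1:28578541-28578640 on the minus strand) do not, and these genes fell. Capitals mark TGTA and the first hexamer used.
SNHG8: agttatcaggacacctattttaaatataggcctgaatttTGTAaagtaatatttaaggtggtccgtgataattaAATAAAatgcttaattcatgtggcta
SNHG29: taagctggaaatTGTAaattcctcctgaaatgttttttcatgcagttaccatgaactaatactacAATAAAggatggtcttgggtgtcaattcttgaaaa
SNHG1: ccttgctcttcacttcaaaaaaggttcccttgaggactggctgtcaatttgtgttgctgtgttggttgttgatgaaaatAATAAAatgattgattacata
SNHG12: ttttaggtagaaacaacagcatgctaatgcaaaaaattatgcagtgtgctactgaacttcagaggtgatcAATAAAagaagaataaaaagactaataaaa

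TGTA was found in the end windows of 8 of the 24 tested members, against 53.6% of 12054 tested genes with such a window. It was in 5 of the 10 members that rose, in none of the 3 that fell and in 3 of the 11 that did not pass the test. ZFAS1, SNHG7, SNHG19, SNHG21 and SNHG25 rose without it. A hexamer was found in 19 of the 24, against 73.4% of tested genes. The windows of SNHG4, which held no hexamer, and of SNHG29 end before the ends of the gene spans given above. Over all tested genes, the median log2 fold change was 0.003 with TGTA in the window and 0.012 without it.

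Summed over the 30 members, host gene counts made up 0.429%, 0.376%, 0.371% and 0.38% of the counts on genes in the DMSO libraries and 0.447%, 0.429%, 0.434% and 0.477% in the dTAGV1 libraries. DMSO replicate 1 was the highest of its group and reached the lower end of the dTAGV1 libraries. The mean share was 0.389% ± 0.0268 with DMSO and 0.447% ± 0.0214 with dTAGV1, a ratio of 1.15, and the ratio was 1.11 when all reads of a library were the denominator. SNHG29, SNHG25 and SNHG6 together gave 51.1% to 55.2% of the members' counts, so the sum mostly reports these 3 genes. The ratio was 1.13 without SNHG29.

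The assay primes on poly(A) tails, and few reads were counted for the snoRNAs themselves. Of 142 snoRNA rows inside the members by GENCODE 29, 4 had any count and none passed the filter on low counts. Of these rows 84 lie in SNHG14, which itself had 4 counts in all, and 53 lie in tested members. Exons of SNHG14 overlap SNRPN on the same strand, which had no count in any library. Reads in exons they share count for neither, so the counts do not show that SNHG14 was silent. Of the 53, 35 overlap an exon of their host, where a shared read counts for neither, and the 4 rows with a count are among the 18 that do not. SNORA73B, inside SNHG3, had 18, 11, 25 and 18 counts with DMSO and 5, 6, 3 and 6 with dTAGV1. SNORA74D, inside SNHG4, had 10, 20, 9 and 6 counts with DMSO and 2, 3, 3 and 4 with dTAGV1. Both snoRNA rows had every DMSO library above every dTAGV1 library, as did 25.1% of all tested genes. The hosts SNHG3 and SNHG4 went in different directions. RCC1, which overlaps SNHG3 on the same strand, fell as SNORA73B did (log2 fold change -0.29), and a link between them was not tested. In the fit without a filter the log2 fold change was -1.74 for SNORA73B (SE 0.40, edgeR adjusted p = 8.65e-05) and -1.78 for SNORA74D (SE 0.50, edgeR adjusted p = 0.00236). SNORA74A, with at most 4 counts in a library, did not pass the test at -1.26 (SE 0.92, edgeR adjusted p = 0.344), and SNORA71B had 2 counts in all. The share of all genes called in the fit without a filter is not given here. A read counted for a snoRNA row can come from a mature snoRNA with a tail, from an unspliced host or from internal priming, and these cannot be told apart here.

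**Figure D3:**
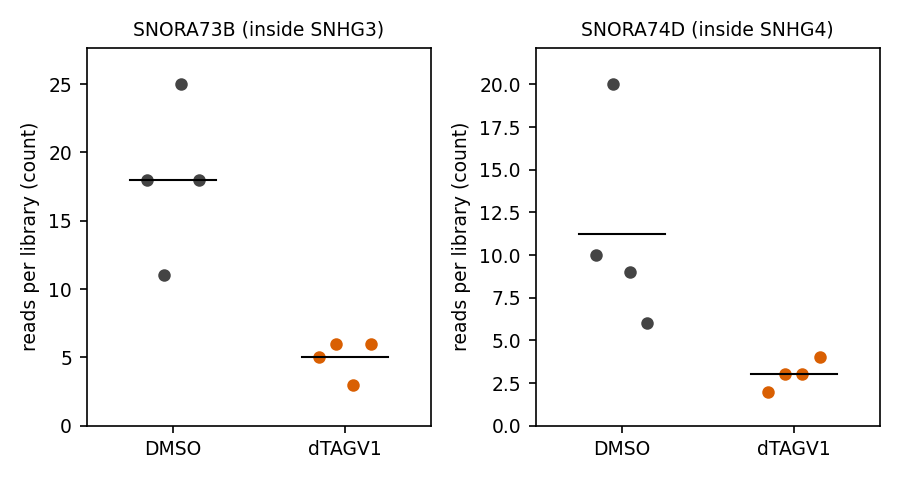
Reads per library counted for the snoRNA rows SNORA73B and SNORA74D (points; line, mean of 4 libraries), for DMSO and dTAGV1, all with JTE-607. With DMSO the counts run from 11 to 25 and from 6 to 20, and with dTAGV1 from 3 to 6 and from 2 to 4.

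Reads on the strand opposite to a member were few. In a fit of opposite-strand counts over 3324 genes, of which 48.4% were called (24% higher, 24.5% lower), 6 members could be tested. The counts opposite SNHG8 and SNHG26 rose with dTAGV1, those opposite SNHG16 fell, and those opposite SNHG7, SNHG9 and SNHG14 did not pass the test.

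Genes that start head to head with a tested member were compared in the same fit. ZBTB37, opposite GAS5, had a log2 fold change of -0.22, ZNFX1, opposite ZFAS1, of -0.07, SLC3A2, opposite SNHG1, of -0.05, and TRAF7, opposite SNHG19, of -0.06, and none of these passed the test. The called members GAS5, ZFAS1, SNHG1 and SNHG19 therefore had partners that were not called; the difference within each pair was not tested. RPS2, a ribosomal protein gene opposite SNHG9, rose by 0.47 on the log2 scale. On the same strand as SNHG20, SEC14L1 had a log2 fold change of 0.14 and did not pass the test. SNHG21 and SNHG32 each overlap a GENCODE 29 identifier on the same strand that was not analysed here. Of untested members, SNHG31 lies opposite BARD1, which fell by 0.89 on the log2 scale, and SNHG22 lies opposite ACAA2, at -0.45, which did not pass the test.

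Proteins that bind snoRNAs and release them from the hosts' introns were taken from 3 lists, and decay factors and other hosts from 3 more. Their counts are to be read against the 29.4% of all tested genes called higher and the 28.5% called lower. Of the 9 snoRNP core proteins none rose, 3 fell and 6 did not pass the test, with a median log2 fold change of -0.11. DKC1, the pseudouridine synthase of H/ACA particles, fell by 1.52 on the log2 scale (SE 0.08), and NOP56, a scaffold of C/D particles, fell by 0.70 (SE 0.07). NHP2, the third that fell, was at -0.26. The C/D methyltransferase FBL did not pass the test, at 0.09. Of the 11 assembly factors 3 rose and 5 fell, with a median of -0.11: ZNHIT6 rose by 0.64 and TGS1, the cap hypermethylase, by 0.44, while PIH1D1 fell by 0.81 and NOLC1 by 0.76. Of the 8 release and trimming enzymes 4 rose and 1 fell, with a median of 0.14. AQR, the intron-binding helicase, rose by 0.67 and DIS3, a nuclease of the exosome, by 0.46, and EXOSC10, the nuclear exosome nuclease that trims snoRNA ends, fell by 0.32.

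Of the 14 factors of nonsense-mediated decay, the route that removes many host exons, 4 rose, 3 fell and 7 did not pass the test, with a median log2 fold change of 0.05. SMG8 rose by 0.89 (SE 0.36, edgeR adjusted p = 0.0377), at a mean of only 2.77 CPM and with groups that overlapped. SMG9 fell by 0.80 and UPF3B by 0.52. UPF1, the helicase at the centre of the route, was at 0.01 and did not pass the test.

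The 39 protein-coding snoRNA hosts had the same median log2 fold change as the noncoding hosts, 0.19, with 18 higher, 8 lower and 13 not past the test. EIF4A2 rose by 0.55 and RPSA by 0.54, while DKC1, itself a host, fell by 1.52 and HSPA8 by 0.81. DKC1 and NOP56 count in this list and among the core proteins. Of the 14 ribosomal protein genes in this list, a subset chosen after the values were seen, 10 rose and none fell, and of the 25 others 8 rose and 8 fell; the difference between the subsets was not tested. Of 5 noncoding genes outside the naming rule, EPB41L4A-AS1, which holds 1 RefSeq snoRNA, rose by 0.51, NOP14-AS1 fell by 1.44 and DANCR was at 0.01. The RefSeq table places no snoRNA inside NOP14-AS1 or MEG3, and MEG3 and MEG8 were not tested.

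**Figure D4:**
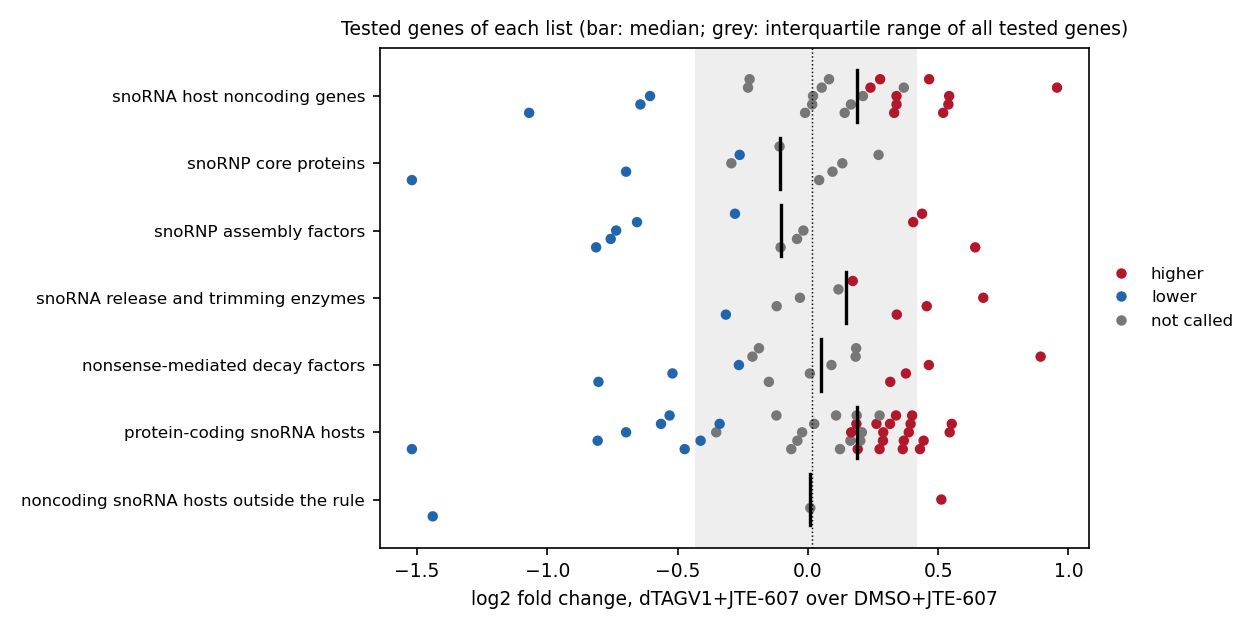
Log2 fold change (horizontal axis) of each tested gene of the noncoding hosts and of the 6 lists, with the list median as a black bar, the interquartile range of all tested genes in grey (-0.43 to 0.42) and their median dotted. The noncoding and protein-coding hosts share a median of 0.19, and no snoRNP core protein is marked as higher.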

How the data were processed

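RNA of 8 HCT116 libraries (4 per treatment, grouped by title) was prepared with a 3′-end kit, Lexogen QuantSeq FWD V2, per the labels' protocols. The deposited values are raw read counts per Ensembl gene in STAR's layout, with 3 columns: irrespective of strand, sense and opposite. The submitters' processing notes name FastQC, fastp, STAR, HTSeq, DESeq2 and GRCh38; roles, versions and annotation are not given in the sources used here. Removal of PCR copies is not stated, so intervals and floors cover counting error only. With 1 read near a transcript's end, no length correction was made.

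Sense counts were used. The 4 totals of unassigned reads (56.7% to 62.77% of a library) stayed out of library sizes and tests. Of uniquely mapped reads, 30.07% to 33.65% with DMSO and 35.85% to 37.36% with dTAGV1 fell on no gene feature in the sense column. These groups did not overlap, and the part of this shift in the members' differences was not tested. Genes passing filterByExpr were fitted in edgeR 4.0.16 (R 4.3.3) with TMM scaling and the robust quasi-likelihood F test, adjusted by Benjamini-Hochberg over all 12618 genes. Positive log2 fold changes are higher with dTAGV1; SE is the absolute log2 fold change over the root of F. CPM is per 1000000 scaled counts. On simulated counts for 12401 genes the fit recovered 78.4% of 194 changed genes, 52.9% of those changed by 0.5 on the log2 scale, with 8 false calls. Far fewer genes changed there than the 57.9% called in the data, so these rates may not carry over. Within groups, libraries differed by more than sampling noise. Same-numbered libraries did not all deviate together (correlations 0.131, -0.0176, 0.0232 and 0.034), so numbers were not taken to pair them.

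Names came from a gene name table (61481 of 78932 identifiers), gene coordinates and end sequences from GENCODE 29, and start sequences and snoRNA spans from RefSeq (GRCh38.p14), which held start windows for 26 members. Members, lists and tests were chosen with earlier results of these data known. Every tested member is named; members averaging at least 10 CPM get all counts; each list names the 2 called genes that rose most and the 2 that fell most, except 1 gene that is not reported here, and tested genes that overlap a member on the same strand, or start within 1000 bases of its start on the other strand, are named. Alternatives covered scaling, tool (DESeq2 1.42.0, limma 3.58.1), filters, strand, a replicate block and leaving out each library.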

Additional observations from a re-analysis of the deposited data

Results flagged for a closer look

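DMSO replicate 1 stood away from the other DMSO libraries, by the gap to its neighbour relative to the range of the group, in 3 members and in their sum. SNHG25 stood at 950 CPM there, SNHG9 at 59.3 CPM and SNHG21 at 16.4 CPM, each the highest of its group. The members' summed share was 0.429% of counts in the same library. Chance gives such a gap in about 1 in 20 groups, and 50 groups were examined. Without this library the members called higher and lower numbered 10 and 3, as with it, and the ratio of summed shares was 1.19.

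Opposite-strand reads lie outside the main measurement, and some of them differed between the groups. Opposite SNHG8 the counts were 31, 30, 24 and 23 with DMSO and 48, 32, 38 and 51 with dTAGV1, a log2 fold change of 0.61 (SE 0.21, edgeR adjusted p = 0.0167). The sense counts of SNHG8 were far higher in every library. Opposite SNHG26 they were 10, 5, 7 and 9 with DMSO and 12, 21, 17 and 19 with dTAGV1, a log2 fold change of 1.12 (SE 0.35, edgeR adjusted p = 0.00794), while the sense counts did not pass the test. Opposite SNHG16 the counts were 21, 30, 25 and 33 with DMSO and 9, 4, 8 and 14 with dTAGV1, a log2 fold change of -1.66 (SE 0.31, edgeR adjusted p = 4.01e-05).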

How the results depend on the processing

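The numbers of members called stayed within 1.5 times their main values under all settings tried: 8 to 11 higher and 2 to 4 lower. Leaving out each library gave 8 to 10 higher and 3 to 4 lower. The 10 members GAS5, ZFAS1, SNHG8, SNHG17, SNHG19, SNHG21, SNHG29, SNHG1, SNHG4 and SNHG12 kept their call in every alternative that tested them. Counts irrespective of strand kept only 73 to 166 of the SNHG29 reads and 242 to 542 of the GAS5 reads in a library. SNHG21, with 1 to 7 counts there, was not tested in them. Among lists, the snoRNP core proteins had 5 calls, not 3, with scaling by library size alone, which moved the median of all genes by -0.075, and the noncoding hosts outside the rule had 1, not 2, with a mean of at least 100 counts, where fewer genes were tested. With the replicate block, 7434 genes were called against 7302, and SNHG6 (0.16, adjusted p = 0.0419) was the one member whose call changed. By library size alone SNHG9 passed (-0.30, adjusted p = 0.028), SNHG25 did not (0.25, adjusted p = 0.109), and signs turned for SNHG11 (-0.06), SNHG15 (-0.06) and SNHG16 (-0.02). Counts irrespective of strand gave SNHG25 -0.82 (adjusted p = 0.0417) from 4 to 30 counts a library, SNHG16 0.69 (adjusted p = 6.99e-08), SNHG7 0.16 (adjusted p = 0.361), SNHG11 -0.01 and SNHG15 -0.01; SNHG16 kept 338 to 662 and SNHG7 92 to 191 counts there, while the counts of SNHG11 and SNHG15 were the same in both columns. With no filter SNHG11 was at -0.00 and SNHG15 at -0.01, with a mean of at least 100 counts SNHG15 was at -0.00, and with limma-voom SNHG32 was at 0.00. Leaving out each library turned signs for SNHG11 (-0.08 to 0.12), SNHG15 (-0.03 to 0.06), SNHG16 (-0.01 to 0.09, negative without dTAGV1 replicate 4) and SNHG32 (-0.12 to 0.12); none of these passed the test, and beyond the counts given the causes were not tested. Chosen after seeing the data, members without same-strand exon overlap gave 8 higher and 2 lower of 19, and leaving out mitochondrial genes gave 10 and 3.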
